A study of Mus musculus with 30 samples.

Results

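Transcripts of 35 interferon-stimulated effector genes were followed in wildtype (WT) and Abcb10-null MEL cells before and during erythroid differentiation. MEL cells are murine erythroleukemia cells, here of the DS19 line, and Abcb10 is a transporter of the mitochondrial inner membrane that is induced as these cells start to make hemoglobin. The 35 genes were selected on the data themselves, as known interferon-stimulated genes whose transcripts were higher in Abcb10-null than in WT cells at day 0, and they were found by symbol among the 54532 genes in the count table. The day 0 difference is therefore how the genes were chosen. It is given below as a description with no test, and so is every change measured from day 0. The tests concern day 2, day 5 and the changes between these days.

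Total RNA was sequenced in 30 libraries, 5 in each of 6 groups: WT and Abcb10-null cells at day 0, day 2 and day 5. Day 0 cells had no inducer. Cells of both genotypes at days 2 and 5 were in 1.5% dimethyl sulfoxide (DMSO), which makes MEL cells differentiate, so that the day and the DMSO cannot be told apart. The Abcb10-null cells came from 1 CRISPR/Cas9 clone (clone 12), obtained by lentiviral transduction and sorting of single GFP-positive cells. A difference of genotype is thus also a difference between this clone and the WT cells. The paper also describes a control (mCherry) lentiviral construct given to WT cells. Whether the WT cells sequenced here carried it is not stated in the labels. The labels number the 5 libraries of a group as biological replicates without saying whether they came from separate cultures, so that p-values measure the spread between libraries.

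Type I interferons bind a receptor made of Ifnar1 and Ifnar2. Its kinases activate transcription factors, among them Irf9 and its partners, that enter the nucleus and bind the interferon-stimulated response element (ISRE) of target promoters. The targets include enzymes that sense or destroy foreign RNA, factors that attach the ubiquitin-like protein Isg15 to other proteins, and proteins that hold back viral budding or translation. In cells that are not infected most of these genes have a low basal transcription. The 35 genes were ordered here by 7 roles: conjugation of Isg15, the Ifit family, the oligoadenylate synthetase (Oas) family, the radical SAM enzyme Rsad2 with its neighbour Cmpk2, ADP-ribosylation partners, factors of restriction, nuclear bodies and cell death, and other genes.

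The promoters of some of these genes are shown because the letters of the ISRE can be looked for in them. RefSeq windows of 250 bases before to 50 bases after the start site (build GRCm38.p6) were found for 28 of the 35 genes. Only the 250 bases before the start site were searched, on both strands. The core of the ISRE was taken as GAAA, any 2 bases, GAAA. It was present in the bases searched for 11 of the 28 genes (39.3%), against 3.46% of the 27025 genes with a window, and 2.98% of all 32851 windows. The core of the gamma-activated site, TTC, any 3 bases, GAA, was in 4 of the 28 genes (14.3%), against 8.13% of all genes with a window and 7.02% of all windows. A match describes the letters and is not a binding site. The stretches around the matches in 9 of the 11 genes follow, 5′ to 3′ on the strand of the gene, with the bases counted from the start site and the matches, read on either strand, in capitals.
Isg15, chr4:156200855-156200916, minus strand, bases -98 to -37: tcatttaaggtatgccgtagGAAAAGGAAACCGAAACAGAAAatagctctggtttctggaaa
Ifit1, chr19:34640765-34640833, plus strand, bases -124 to -56: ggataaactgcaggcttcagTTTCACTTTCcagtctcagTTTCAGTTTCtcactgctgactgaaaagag
Ifit3, chr19:34583353-34583436, plus strand, bases -176 to -93: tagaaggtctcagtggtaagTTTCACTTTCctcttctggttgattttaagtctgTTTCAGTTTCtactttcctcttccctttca
Oas1a, chr5:120907526-120907565, minus strand, bases -40 to -1: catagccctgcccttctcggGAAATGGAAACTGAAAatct
Oas1g, chr5:120887614-120887651, minus strand, bases -38 to -1: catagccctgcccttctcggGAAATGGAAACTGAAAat
Oas3, chr5:120777705-120777754, minus strand, bases -95 to -46: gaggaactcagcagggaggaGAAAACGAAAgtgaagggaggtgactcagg
Rsad2, chr12:26456543-26456592, minus strand, bases -140 to -91: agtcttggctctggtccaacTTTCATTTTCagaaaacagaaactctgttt
Bst2, chr8:71537567-71537622, minus strand, bases -150 to -95: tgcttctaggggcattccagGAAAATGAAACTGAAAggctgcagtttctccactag
Trim30a, chr7:104465200-104465249, minus strand, bases -56 to -7: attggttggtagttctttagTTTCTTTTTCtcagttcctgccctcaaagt

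The stretch of *Isg15* held 3 overlapping matches, and those of *Ifit1*, *Ifit3*, *Oas1a*, *Oas1g* and *Bst2* held 2 each. The window of *Ifit3b* carried the same 84 bases as *Ifit3*, and *Oas1a* and *Oas1g* shared the letters from 20 bases before the matches to their end, directly before the start sites. The remaining gene with the core was *Slfn5*. The genes also lay close together: 19 of the 35 had another of the 35 within 1 Mb. On chromosome 5 *Oas1a* and *Oas1g* were 8.64 kb apart and *Oasl1* and *Oasl2* 11 kb apart. On chromosome 12 *Rsad2* and *Cmpk2* lay 12.8 kb apart on opposite strands. On chromosome 19 *Ifit2*, *Ifit3*, *Ifit3b* and *Ifit1* followed each other with gaps of 7.11, 19.2 and 27.5 kb. Copies of such families share reads. Of all 51-base words in the transcripts, 57.0% of those of *Oas1a* were also in *Oas1g*, and 50.8% of those of *Ifit3* were also in *Ifit3b*. The split of counts within these pairs is uncertain.

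Library totals ran from 9906783 to 20157768 counts, with a median of 16492116.5. *Abcb10* itself was at 112 to 126 CPM (counts divided by the scaled library size) in WT against 67.1 to 79.3 CPM in Abcb10-null cells at day 0, 474 to 659.8 and 162 to 312 CPM at day 2, and 1148 to 1263 and 176 to 237 CPM at day 5, with no overlap on any day. Abcb10-null day 2 replicate 3 held the 312 CPM, against 162 to 189 CPM in the other 4 libraries of its group. Detection at day 5 was uneven. Abcb10-null day 5 replicate 4, the shallowest library, had at least 1 count for 36511 genes, WT day 5 replicate 3 for 29986 and Abcb10-null day 5 replicate 5 for 27675, against 17472 to 26299 genes in the other 27 libraries. Of 26410 genes without a count at day 0, 6041 had over 3 counts in Abcb10-null day 5 replicate 4. Values of scarce genes at day 5 are given with this in view.

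Erythroid markers matched the label of the cells. The summed level of 10 of them was 2008 to 2255 CPM in WT libraries at day 0 and 9984 to 21724 CPM at day 5, against 2166 to 2346 and 4847 to 6190 CPM in Abcb10-null libraries. All 10 were called lower in Abcb10-null cells at day 5. The macrophage and monocyte list of 7 genes summed to 7.88 to 9.40 CPM in WT against 9.73 to 15.1 CPM in Abcb10-null cells at day 0, and to no more than 10.6 CPM at later days. Dendritic, T cell, B cell and NK cell lists stayed at or below 5.12 CPM in every library and both NK cell markers had no count at days 0 and 2. The dendritic list left out *Bst2*, a dendritic marker that is also among the effector genes studied. At day 0 *Bst2* was at 39.4 CPM per kb of transcript in WT and 89.3 CPM per kb in Abcb10-null cells. The 3 megakaryocyte genes summed to 154 to 603 CPM. The part of the macrophage genes in the day 0 difference was not tested. In bulk RNA, a larger share of expressing cells and more RNA per cell cannot be told apart.

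The 35 genes stood higher in Abcb10-null cells at day 0 and the excess shrank on each later day. The mean of log2(CPM + 0.5) over the 35 genes was 2.47 ± 0.03 in WT libraries and 4.79 ± 0.03 in Abcb10-null libraries at day 0 (mean ± SD over libraries, n = 5 in each group), 2.47 ± 0.04 and 3.30 ± 0.19 at day 2, and 2.65 ± 0.17 and 3.00 ± 0.14 at day 5. Abcb10-null libraries at day 0 lay between 4.74 and 4.84, WT libraries between 2.43 and 2.50. At day 5 the groups overlapped, with 2.43 to 2.88 in WT and 2.81 to 3.13 in Abcb10-null libraries.

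**Figure D1:**
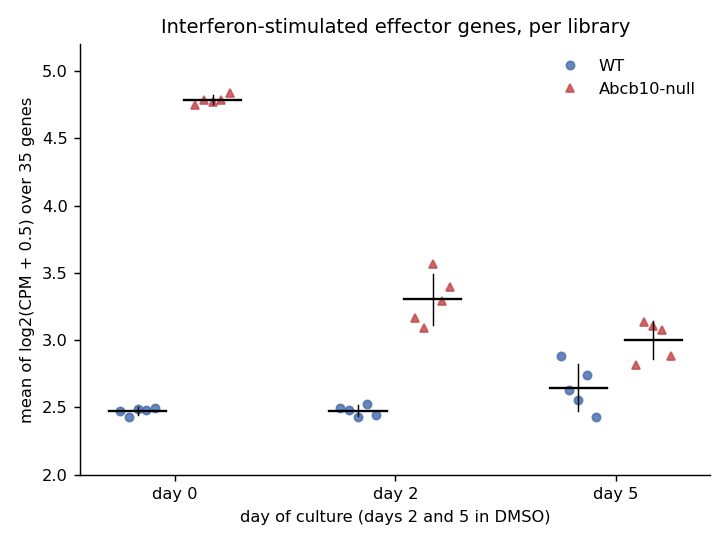
Mean level of the 35 genes as log2(CPM + 0.5) in each of the 30 libraries, by day and genotype; points are libraries, horizontal lines are group means and vertical lines are SD. The Abcb10-null libraries fall from 4.74 to 4.84 at day 0 to 2.81 to 3.13 at day 5, while WT libraries stay between 2.43 and 2.88.

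By the rule of selection, all 31 genes with enough counts for a fit at day 0 had positive differences, with a median log2 fold change of 2.81 (also with *Trim30c* and *Rtp4*, at 0 in WT cells, set to their lower bounds) against -0.0019 over all 12912 genes. Every Abcb10-null library exceeded every WT library in 30 of the 31, all but *Trim25*. This was so for 13.7% of all genes, and nothing is read from the counts because day 0 chose the genes. The 4 without enough counts in any comparison were *Ifit3*, *Ifit3b*, *Zbp1* and *Ifi44*. In level per kilobase of transcript, the highest in Abcb10-null cells at day 0 were *Bst2* at 89.3, *Ifi27l2a* at 84.3 and *Ifi35* at 58.3 CPM per kb. The same 3 led in WT cells at 39.4, 21.5 and 21.3 CPM per kb. Abcb10-null cells at day 0 held the highest mean of the 6 groups for 32 of the 35 genes. The exceptions were *Ube2l6*, highest in WT cells at day 5, *Helz2*, highest in WT cells at day 2, and *Zbp1*.

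At day 2, 29 of the genes could be tested, and 21 were higher and 1 was lower in Abcb10-null cells, against 14.9% higher and 16.9% lower among 13053 genes tested (edgeR quasi-likelihood test, Benjamini-Hochberg adjusted p under 0.05 over all genes). Their median log2 fold change was 1.01, and that of all genes was -0.0022. The 21 included *Oas1g*, which had 1 WT count, and *Ifit1* and *Oasl2*, which also had few WT counts. They passed the filter only through the Abcb10-null group, so nothing is read from their calls. Without Abcb10-null replicate 3, the library with the most *Abcb10* in its group, 19 were higher and 1 lower. Of the 29, *Isg15*, *Ifit1*, *Oas1g* and *Oasl2* did not reach 10 counts in every library, and with that limit 17 of 25 genes were higher and 1 was lower, with a median of 0.80. At day 5, 10 were higher and 4 lower of 28 tested, against 19.8% higher and 17.8% lower among all genes, with a median of 0.19 against -0.0164. The day 5 count of higher genes depended on the libraries. It was 5 without WT replicate 3, 6 without WT replicate 5, 5 without Abcb10-null replicate 2 and 4 without Abcb10-null replicate 3. Without the 3 libraries of broad detection it was 5, with 0 lower (10 and 3 at an unadjusted p under 0.05). The calls of *Trim25*, *Oas3*, *Oasl1*, *Slfn5*, *Trim30a*, *Ifi27l2a* and *Lgals3bp* at day 5 held whichever single library was left out, and those of *Isg15*, *Herc6*, *Usp18*, *Oas1a*, *Oas2*, *Rsad2* and *Rnf213* did not. Without all 3 libraries of broad detection, *Trim25*, *Oas3*, *Oasl1* and *Ifi27l2a* no longer passed (adjusted p = 0.0985, 0.103, 0.0504 and 0.0849). *Ifi27l2a* and *Lgals3bp* did not reach 10 counts in every day 5 library.

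Conjugation of Isg15 to other proteins is carried by the 5 genes of this role: the modifier itself, the conjugating enzyme Ube2l6, the ligases Herc6 and Trim25, and Usp18, which removes Isg15 and also inhibits the interferon receptor. The counts by role, here and below, are small and stand beside the shares of all genes. These were 14.9% higher and 16.9% lower at day 2, and 19.8% and 17.8% at day 5. At day 2, 3 of the 5 were higher in Abcb10-null cells and none was lower. At day 5, 2 were higher, 2 were lower, and *Ube2l6* did not pass the test.

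*Usp18* had the largest day 0 difference of the role. WT libraries held 3.85, 4.74, 4.05, 3.84 and 3.86 CPM of *Usp18* at day 0, 2.35, 2.65, 2.27, 2.44 and 3.096 CPM at day 2 and 8.51, 3.41, 2.86, 5.77 and 3.22 CPM at day 5. Abcb10-null libraries held 58.4, 74.2, 82.2, 67.4 and 69.7 CPM at day 0, 15.6, 3.02, 19.3, 17.8 and 8.54 CPM at day 2 and 6.499, 12.01, 15.8, 8.704 and 6.92 CPM at day 5. The groups were far apart at day 0 and overlapped on both later days, as 1 Abcb10-null library lay among the WT libraries at day 2 and 2 lay below the highest WT library at day 5. The difference passed the test at day 2 (log2 fold change 2.26, SE 0.40, adjusted p = 0.0032) and at day 5 (log2 fold change 1.07, SE 0.34, adjusted p = 0.0249). *Isg15* went the same way, with 1.38 ± 0.286 CPM in WT against 19.6 ± 3.74 CPM in Abcb10-null cells at day 0 (mean ± SD, n = 5). It was at 0.627 ± 0.166 and 4.36 ± 1.89 CPM at day 2 (log2 fold change 2.73, SE 0.42, adjusted p = 0.00198) and at 2.06 ± 1.1 and 5.76 ± 2.69 CPM at day 5 (log2 fold change 1.47, SE 0.41, adjusted p = 0.0135).

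*Trim25* stood at the other end of this role. It gave 36.6, 44.3, 45.2, 41.6 and 58.02 CPM in WT against 58.6, 51.8, 40.9, 44.8 and 69.6 CPM in Abcb10-null cells at day 0. *Trim25* at day 2 had 57.3, 60.4, 37.3, 56.5 and 51.9 CPM in WT against 27.9, 62.4, 42.1, 25.96 and 39.1 CPM in Abcb10-null libraries. At day 5, *Trim25* had 43.4, 67.1, 44.6, 51.9 and 38.3 CPM against 35.2, 35.4, 33.5, 37.8 and 33 CPM. The libraries overlapped at days 0 and 2, and at day 5 every Abcb10-null library was below every WT library (log2 fold change -0.50, SE 0.15, adjusted p = 0.0191). *Herc6* changed sides between the days, being higher at day 2 (log2 fold change 0.52, SE 0.14, adjusted p = 0.0164) and lower at day 5 (log2 fold change -0.48, SE 0.16, adjusted p = 0.0296). *Ube2l6* rose in WT cells from 53.97 to 94.3 CPM between days 2 and 5 (log2 fold change 0.81, SE 0.12, adjusted p = 0.000426) and in Abcb10-null cells from 54.9 to 76.2 CPM (log2 fold change 0.48, SE 0.13, adjusted p = 0.0136). Its genotype difference had log2 fold changes of -0.024 at day 2 and -0.31 at day 5 (adjusted p = 0.896 and 0.0612).

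Ifit proteins bind RNA whose cap marks it as foreign. Of the 4 genes, *Ifit1* and *Ifit2* could be tested. Both were called higher in Abcb10-null cells at day 2, and neither passed the test at day 5. At day 2 *Ifit1* passed the filter only through the Abcb10-null group, so nothing is read from its call. *Ifit1* was at 1.64, 1.24, 0.887, 1.52 and 1.43 CPM in WT against 10.9, 11.9, 11.9, 12.8 and 11.6 CPM in Abcb10-null libraries at day 0. *Ifit1* at day 2 had 0.301, 0.118, 1, 0.183 and 0.885 CPM in WT against 1.69, 0.594, 2.46, 2.797 and 1.24 CPM in Abcb10-null libraries. At day 5, *Ifit1* had 5.38, 1.59, 3.23, 2.74 and 0.901 CPM against 1.704, 2.18, 4.01, 3.17 and 1.77 CPM. The genotypes overlapped at days 2 and 5, and the day 2 difference (log2 fold change 1.76, SE 0.58, adjusted p = 0.0347) no longer passed when any of 6 of the 10 libraries was left out. In WT cells *Ifit1* rose from day 2 to day 5 (log2 fold change 2.47, SE 0.62, adjusted p = 0.00873).

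*Ifit2* had a day 2 difference no smaller than that of day 0. WT libraries held 12.7, 13.9, 12.4, 13.7 and 13.5 CPM at day 0, 7.16, 8.79, 12.1, 10.7 and 9.84 CPM at day 2 and 3.27, 2.12, 3.51, 3.102 and 4.696 CPM at day 5, and Abcb10-null libraries 19.5, 21.9, 20.6, 22.3 and 23.8, then 16.6, 13.9, 21.3, 18.9 and 17.9, then 2.21, 4.42, 4.35, 0.819 and 2.08 CPM. The genotypes did not overlap at days 0 and 2 (log2 fold change 0.82, SE 0.18, adjusted p = 0.00632 at day 2) and overlapped at day 5. It fell from day 2 to day 5 in WT (log2 fold change -1.54, SE 0.24, adjusted p = 0.000521) and in Abcb10-null cells (log2 fold change -2.64, SE 0.32, adjusted p = 9.57e-05). *Ifit3* and *Ifit3b* were near the limit of detection. At day 0 they had 44 and 12 counts over the 5 Abcb10-null libraries and 13 and 1 counts over the 5 WT libraries. At day 2 they had 4 and 0 counts in Abcb10-null cells.

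Oas proteins are switched on by double-stranded RNA and make oligoadenylates that activate RNase L. At day 2, 5 of the 6 were called higher in Abcb10-null cells, and *Oas3* did not pass the test. The 5 included *Oas1g*, with 1 WT count, and *Oasl2*, which also passed the filter only through the Abcb10-null group. At day 5, 3 of the 5 tested were higher, *Oas3* was lower, and *Oasl2* did not pass the test. The day 5 calls of *Oas1a* and *Oas2* held in 3 and 2 of the 10 fits that each left out a library. Among the genes with the ISRE core were *Oas1a*, *Oas1g* and *Oas3*, whose promoter stretches are shown above.

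*Oas1g* was close to silent in WT cells, with 12 counts over 5 libraries at day 0, 1 count at day 2 and 1 count at day 5. In Abcb10-null libraries it was at 10.4, 16.6, 14.3, 14.8 and 13.3 CPM at day 0, 1.64, 1.39, 2.2, 3.65 and 1.398 CPM at day 2 and 0.379, 0.56, 0.339, 1.43 and 1.54 CPM at day 5. All Abcb10-null libraries were above all WT libraries on each day. At day 2 the ratio of levels was 166-fold, with an exact 95% Clopper-Pearson counting interval of 29.5 to 6602 (187 counts against 1), and at day 5 it was 51-fold (8.79 to 2052, 55 counts against 1). These intervals cover counting error only. With 1 WT count it passed the filter at day 2 only through the Abcb10-null group, so that nothing is read from its test, and at day 5 it was below the filter. Its paralog *Oas1a*, which shares words with it as given above, was at 4.63, 5.13, 4.87, 6.402 and 5.36 CPM in WT against 10.2, 10.9, 18.4, 11.3 and 16.9 CPM in Abcb10-null libraries at day 2 (log2 fold change 1.31, SE 0.21, adjusted p = 0.0026) without overlap.

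*Oas3* differed from the rest of the family. WT libraries held 4.98, 4.45, 5.77, 5.802 and 5.47 CPM at day 0, 8.79, 10.1, 6.53, 7.26 and 6.63 CPM at day 2 and 11.1, 9.63, 8.68, 11.3 and 9.39 CPM at day 5. Abcb10-null libraries held 31.9, 42.1, 38.3, 35.8 and 39.3 CPM at day 0, 3.38, 7.47, 4.92, 5.47 and 9.94 CPM at day 2 and 6.62, 8.4, 5.76, 6.35 and 4.31 CPM at day 5. Abcb10-null cells were above WT cells at day 0, overlapped with them at day 2 (log2 fold change -0.38, SE 0.28, adjusted p = 0.312), and at day 5 were below every WT library (log2 fold change -0.68, SE 0.19, adjusted p = 0.0143).

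*Oasl1* encodes a family member without synthetase activity that represses translation of *Irf7*. It was at 47.9, 46.8, 45.96, 47.4 and 48.3 CPM in WT against 115, 129, 138, 132 and 112 CPM in Abcb10-null libraries at day 0. *Oasl1* at day 2 had 10.3, 8.73, 6.33, 13.6 and 8.46 CPM in WT against 21.5, 12.4, 23.8, 32.3 and 17.3 CPM in Abcb10-null libraries. At day 5, *Oasl1* had 5.02, 2.43, 3.14, 3.39 and 6.75 CPM against 5.93, 12.3, 12.2, 7.58 and 8.92 CPM. Both genotypes went down together, with falls between days 2 and 5 in WT (log2 fold change -1.18, SE 0.30, adjusted p = 0.0084) and in Abcb10-null cells (log2 fold change -1.18, SE 0.26, adjusted p = 0.00362). Its difference was 1.40 at day 0, 1.12 at day 2 (adjusted p = 0.00786) and 1.17 at day 5 (adjusted p = 0.00754) on the log2 scale. This was the largest share of a day 0 difference, with its sign, left at day 5 among the 27 genes with all comparisons (83.8%). *Oasl2*, 11 kb away, was at 9.46, 1.79 and 2.13 CPM in Abcb10-null cells at days 0, 2 and 5 and at 0.259, 0.471 and 2.04 CPM in WT cells. Its test gave log2 fold change 1.86, SE 0.46, adjusted p = 0.0107 at day 2 and log2 fold change 0.038, SE 0.44, adjusted p = 0.956 at day 5. At day 2 *Oasl2* passed the filter only through the Abcb10-null group, so nothing is read from that call. *Oas2* was higher on both days (log2 fold change 1.15, SE 0.29, adjusted p = 0.012 at day 2 and log2 fold change 0.97, SE 0.36, adjusted p = 0.0473 at day 5).

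Rsad2, or viperin, converts a nucleotide into a terminator of viral RNA chains, and Cmpk2 is a nucleotide kinase that supplies it. *Rsad2* was at 4.64, 4.45, 4.82, 4.13 and 5.099 CPM in WT against 133, 142, 132, 144 and 136 CPM in Abcb10-null libraries at day 0. *Rsad2* at day 2 had 5.72, 5.901, 6.73, 4.63 and 5.36 CPM in WT against 28.8, 16.6, 50.8, 31.1 and 26.1 CPM in Abcb10-null libraries. At day 5, *Rsad2* had 22.3, 15.5, 8.86, 15.8 and 10.2 CPM against 23.3, 33.8, 32.2, 18.7 and 18 CPM. The genotypes stood apart at days 0 and 2 (log2 fold change 2.38, SE 0.26, adjusted p = 0.000191 at day 2) and overlapped at day 5, where the difference still passed the test (log2 fold change 0.79, SE 0.26, adjusted p = 0.0283) in the full set of libraries. Between days 2 and 5 *Rsad2* rose in WT cells (log2 fold change 1.37, SE 0.24, adjusted p = 0.00119).

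*Cmpk2* was at 12.97, 9.04, 9.15, 11.3 and 8.89 CPM in WT against 109, 115, 104, 114 and 111 CPM in Abcb10-null libraries at day 0. *Cmpk2* at day 2 had 17.03, 18.1, 23.3, 21.9 and 19.3 CPM in WT against 31.4, 38.9, 60.02, 34.4 and 51.2 CPM in Abcb10-null libraries. At day 5, *Cmpk2* had 20.7, 14.6, 17.8, 17.5 and 13.8 CPM against 27.3, 24.9, 29.7, 17.3 and 16 CPM. Every Abcb10-null library was above every WT library at day 2 (log2 fold change 1.07, SE 0.19, adjusted p = 0.00307), and the groups overlapped at day 5 (log2 fold change 0.44, SE 0.19, adjusted p = 0.0834). It fell in Abcb10-null cells between these days (log2 fold change -0.90, SE 0.21, adjusted p = 0.00563).

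Parp9 and Dtx3l form a complex that acts on DNA damage and interferon signalling, and Parp14 adds single ADP-ribose units to proteins. All 3 were higher in Abcb10-null cells at day 2 and none of the 3 passed the test at day 5. *Parp9* was at 12.5, 13.2, 13.03, 9.5 and 12.4 CPM in WT against 70.8, 79.2, 80.8, 81.03 and 84.7 CPM in Abcb10-null libraries at day 0. *Parp9* at day 2 had 19.2, 16.3, 13.1, 14.8 and 15.6 CPM in WT against 27.5, 14.99, 41.7, 25.9 and 19.9 CPM in Abcb10-null libraries. At day 5, *Parp9* had 26.1, 22.4, 23.9, 22.5 and 18.1 CPM against 14.8, 26.8, 26.5, 16.1 and 21.3 CPM. The groups overlapped on both later days, and the day 2 difference (log2 fold change 0.66, SE 0.23, adjusted p = 0.0456) no longer passed when any of 8 of the 10 libraries was left out. *Dtx3l* was at 18.7, 22.2, 15.99, 23.4 and 19.2 CPM in WT against 32.3, 31.9, 40.8, 29.3 and 35.1 CPM in Abcb10-null libraries at day 2, with no overlap (log2 fold change 0.72, SE 0.15, adjusted p = 0.00538), and had been at 28 to 31.6 and 48.4 to 68.4 CPM at day 0. The 2 genes overlap on opposite strands over 458 exon bases, and the strand setting of the counting is not given in the sources used here. *Parp14* had log2 fold change 0.58, SE 0.15, adjusted p = 0.0138 at day 2 and log2 fold change 0.10, SE 0.13, adjusted p = 0.561 at day 5.

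Factors of restriction, nuclear bodies and cell death made up 10 genes. Among them are Bst2, which tethers budding virus to the membrane, Xaf1, which promotes apoptosis, Samd9l, which restricts translation and growth, Slfn5 of the Schlafen family, the very large ubiquitin ligase Rnf213, the helicase Helz2, Trim30a and its neighbour Trim30c, Sp100 of the PML nuclear body, and Zbp1, a sensor of Z-form nucleic acid. Of the 8 tested at day 2, 4 were higher, *Helz2* was lower and 3 did not pass the test. Of the 8 at day 5, 3 were higher and 5 did not pass the test.

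*Trim30a* had the largest day 0 difference of the genes of this role with counts in WT cells. WT libraries held 4.64, 4.303, 4.77, 6.96 and 3.92 CPM at day 0, 5.24, 4.19, 5.93, 4.82 and 3.98 CPM at day 2 and 10.3, 4.02, 5.72, 8.296 and 5.34 CPM at day 5. Abcb10-null libraries held 132, 162, 164, 146 and 173 CPM at day 0, 43.5, 32.99, 57.7, 48.6 and 41.8 CPM at day 2 and 23.98, 29.4, 28.03, 30.8 and 25.6 CPM at day 5. The genotypes did not overlap on any day (log2 fold change 3.17, SE 0.18, adjusted p = 9.05e-07 at day 2 and log2 fold change 2.03, SE 0.22, adjusted p = 3.09e-05 at day 5). It fell in Abcb10-null cells between days 2 and 5 (log2 fold change -0.70, SE 0.15, adjusted p = 0.00285). *Trim30c*, 8.19 kb away, had no count in any WT library at days 0 and 2. In Abcb10-null libraries it was at 3.49, 4.16, 2.78, 2.24 and 3.33 CPM at day 0, at least 16.7-fold above the 3-count floor per library of WT cells. It was down to 16 counts over the 5 libraries at day 2.

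*Slfn5* was higher in Abcb10-null cells on each day. It was at 9.91, 7.37, 7.04, 7.18 and 7.71 CPM in WT against 76.2, 72.7, 63.9, 76.9 and 72.3 CPM in Abcb10-null libraries at day 0. *Slfn5* at day 2 had 9.45, 12.8, 11.1, 10.9 and 10.4 CPM in WT against 34.9, 20.2, 33.05, 30.03 and 31.5 CPM in Abcb10-null libraries. At day 5, *Slfn5* had 10.98, 9.93, 8.21, 8.73 and 12.1 CPM against 29.7, 34.04, 33.1, 36.2 and 34 CPM. The groups did not overlap on any day (log2 fold change 1.40, SE 0.17, adjusted p = 0.000404 at day 2 and log2 fold change 1.73, SE 0.14, adjusted p = 2.64e-06 at day 5). Between days 2 and 5 the level in Abcb10-null cells, at 29.9 ± 5.73 and 33.4 ± 2.37 CPM, did not pass the test of a change (n = 5, log2 fold change 0.16, SE 0.14, adjusted p = 0.42).

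*Helz2*, the 1 gene that was lower at day 2, was at 9.46, 8.75, 10.6, 9.86 and 15.4 CPM in WT against 18.4, 17.3, 16.2, 18.4 and 18.9 CPM in Abcb10-null libraries at day 0. *Helz2* at day 2 had 48.4, 47.6, 15.1, 22.4 and 26.9 CPM in WT against 10.2, 21.7, 17.5, 10.2 and 13 CPM in Abcb10-null libraries. At day 5, *Helz2* had 20.7, 40.04, 23.99, 27.7 and 22.6 CPM against 22.2, 22.6, 21.5, 25.4 and 20.3 CPM. Abcb10-null cells were above WT cells at day 0, lower with some overlap at day 2 (log2 fold change -1.20, SE 0.33, adjusted p = 0.0166), and overlapping at day 5 (log2 fold change -0.28, SE 0.18, adjusted p = 0.228). WT day 2 libraries themselves spread from 15.1 to 48.4 CPM.

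*Xaf1* was higher at day 2 (log2 fold change 1.596, SE 0.28, adjusted p = 0.00313) and at 6.67 and 7.18 CPM at day 5 (log2 fold change 0.10, SE 0.20, adjusted p = 0.719), after a rise in WT cells from day 2 (log2 fold change 1.33, SE 0.22, adjusted p = 0.000715). *Samd9l* was higher at day 2 (log2 fold change 0.98, SE 0.15, adjusted p = 0.00209) and fell in Abcb10-null cells by day 5 (log2 fold change -0.53, SE 0.15, adjusted p = 0.0143). *Rnf213* had log2 fold change 0.33, SE 0.26, adjusted p = 0.352 at day 2 and log2 fold change 0.63, SE 0.23, adjusted p = 0.0492 at day 5, a call that held in 1 of the 10 fits that each left out a library. *Bst2* and *Sp100* did not pass the test on either day (day 2 log2 fold changes 0.63 and 0.29, adjusted p = 0.0553 and 0.29). *Bst2* fell between days 2 and 5 in both genotypes (log2 fold changes -0.80 in WT and -0.98 in Abcb10-null cells, adjusted p = 0.0419 and 0.00132). The WT call held in 4 of the 10 fits that each left out a library.

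**Figure D2:**
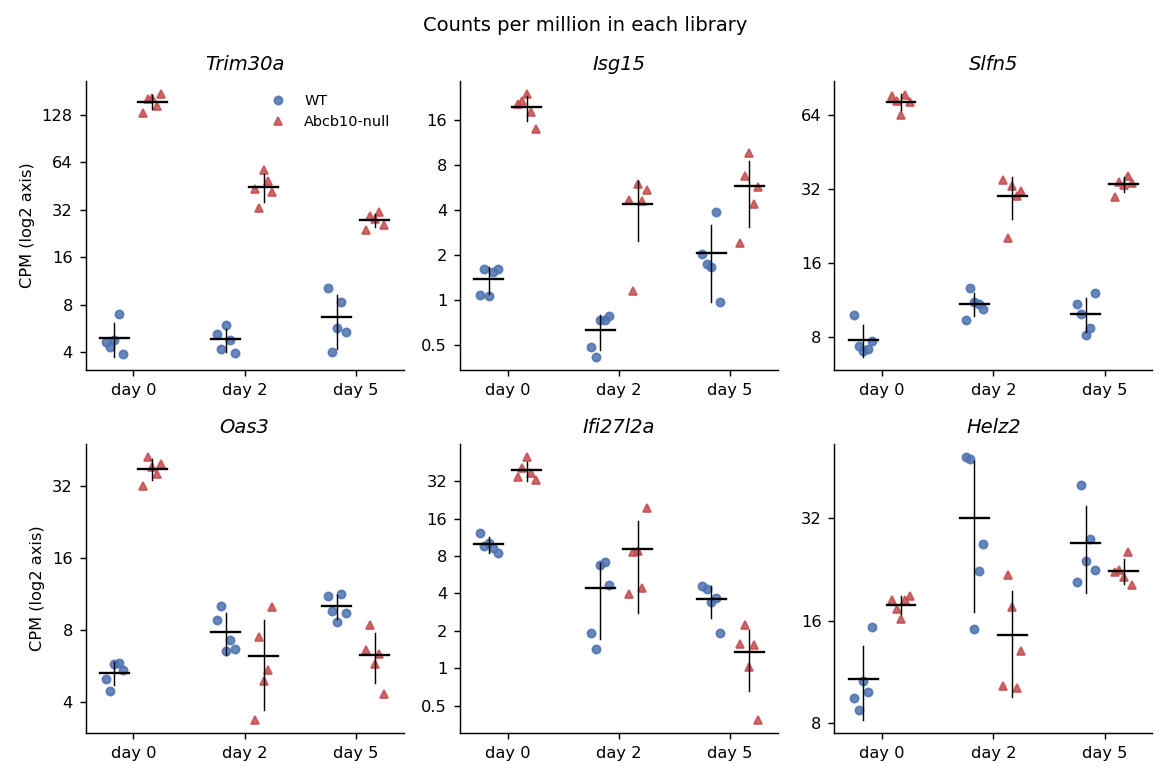
Levels of *Trim30a*, *Isg15*, *Slfn5*, *Oas3*, *Ifi27l2a* and *Helz2* in each library on a log2 CPM axis against day; points are libraries, horizontal lines are group means and whiskers are SD (n = 5). *Trim30a* and *Slfn5* stay apart between genotypes on all days, *Oas3* and *Ifi27l2a* cross, and *Helz2* in WT cells spreads from 15.1 to 48.4 CPM at day 2.

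The last 5 genes have other roles. Rtp4 helps receptors reach the membrane, Ifi35 is a leucine zipper protein, Ifi27l2a is a small mitochondrial protein, Lgals3bp is a secreted glycoprotein, and the role of Ifi44 is less defined. Of the 3 tested, 2 were higher in Abcb10-null cells at day 2, and at day 5 *Lgals3bp* was higher and *Ifi27l2a* was lower.

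*Lgals3bp* was at 1.19, 0.948, 1.22, 0.798 and 1.62 CPM in WT against 18.03, 17.8, 23.6, 18.2 and 15.97 CPM in Abcb10-null libraries at day 0. *Lgals3bp* at day 2 had 2.35, 3.19, 2.47, 3.35 and 2.38 CPM in WT against 6.27, 6.43, 8.33, 9.48 and 8.13 CPM in Abcb10-null libraries. At day 5, *Lgals3bp* had 1.02, 1.21, 0.277, 0.721 and 2.12 CPM against 8.08, 6.41, 4.97, 5.53 and 4.69 CPM. The genotypes never overlapped (log2 fold change 1.44, SE 0.22, adjusted p = 0.0019 at day 2 and log2 fold change 2.43, SE 0.39, adjusted p = 0.00048 at day 5). It fell in WT cells between days 2 and 5 (log2 fold change -1.33, SE 0.41, adjusted p = 0.0242), and its interaction of genotype and day did not pass the test (log2 fold change 0.94, SE 0.43, adjusted p = 0.199). *Ifi27l2a* was at 12.2, 9.7, 10.2, 9.21 and 8.39 CPM in WT against 34.7, 40.5, 50.1, 37.3 and 32.5 CPM in Abcb10-null libraries at day 0. *Ifi27l2a* at day 2 had 1.93, 1.42, 6.797, 7.195 and 4.64 CPM in WT against 3.98, 8.56, 8.798, 4.44 and 19.5 CPM in Abcb10-null libraries. At day 5, *Ifi27l2a* had 4.58, 4.32, 3.42, 3.68 and 1.93 CPM against 1.58, 2.24, 1.02, 1.54 and 0.385 CPM. It was the gene with the deepest fall in Abcb10-null cells between days 2 and 5 (log2 fold change -2.74, SE 0.49, adjusted p = 0.00102), and at day 5 it was lower than in WT cells (log2 fold change -1.41, SE 0.41, adjusted p = 0.0171), with 1 Abcb10-null library above the lowest WT library.

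*Ifi35* was at 40.99, 38.7, 34.9, 35.1 and 34.6 CPM in WT against 97.6, 95.2, 101, 107 and 102 CPM in Abcb10-null libraries at day 0. *Ifi35* at day 2 had 56.7, 50.5, 51.4, 64.6 and 49.1 CPM in WT against 90.9, 58.9, 94.8, 95.8 and 75.96 CPM in Abcb10-null libraries. At day 5, *Ifi35* had 76.1, 57.2, 65.3, 69.8 and 59.9 CPM against 64.6, 84.5, 90.8, 59.6 and 65.7 CPM. It was higher at day 2 (log2 fold change 0.56, SE 0.14, adjusted p = 0.0117), with some overlap, and did not pass the test at day 5 (log2 fold change 0.15, SE 0.14, adjusted p = 0.414). *Rtp4* had no count in WT cells at day 0 and was at 3.17, 1.65, 2.34, 1.92 and 2.66 CPM in Abcb10-null libraries, at least 12.2-fold above the floor. At day 2 it had 24 counts against 1, a ratio of 21.3 (exact 95% Clopper-Pearson counting interval 3.48 to 877), and at day 5 it had 16 counts against 0. *Ifi44* had 38 counts in Abcb10-null cells and none in WT cells at day 0, and *Zbp1* had 2 counts and none. At day 5, 21 of the 24 counts of *Zbp1* in Abcb10-null cells came from replicate 4, the library of broadest detection.

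**Figure D3:**
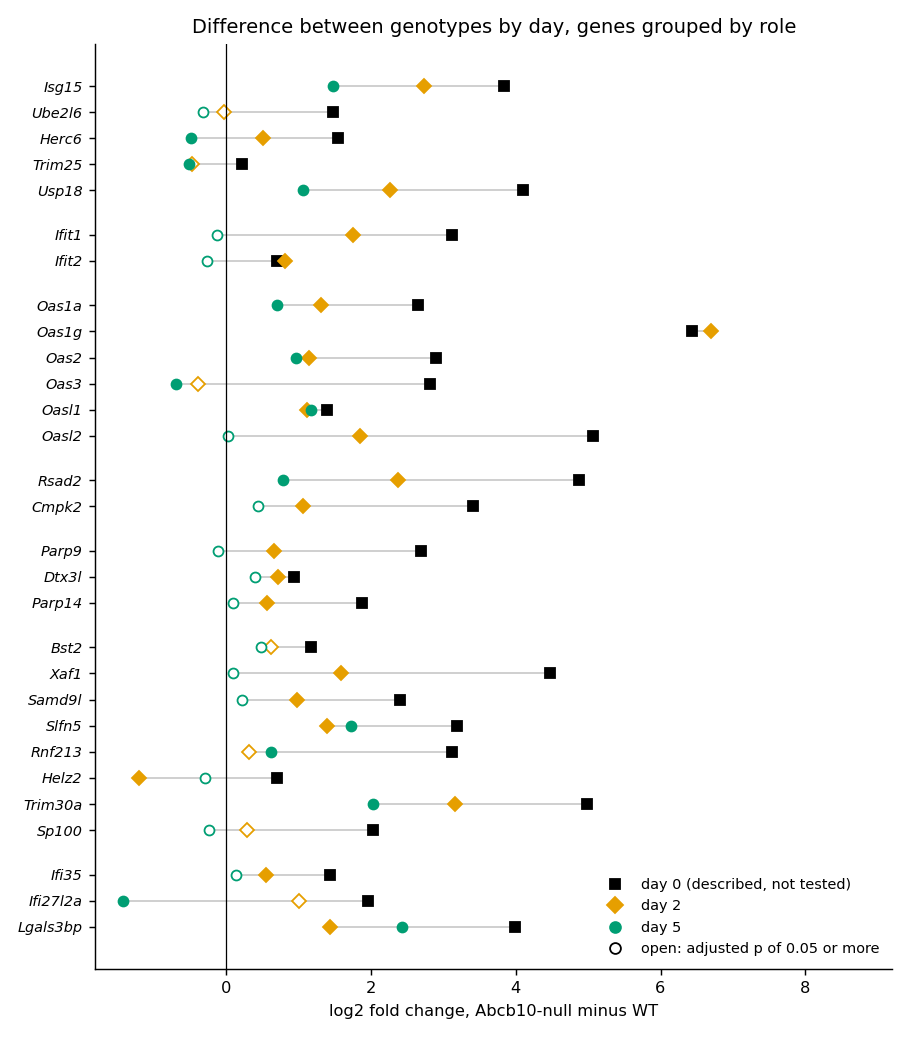
Difference between genotypes for 29 genes as log2 fold change (Abcb10-null minus WT) at day 0 (squares, not tested), day 2 (diamonds) and day 5 (circles), ordered by role; open symbols have an adjusted p of 0.05 or more. Most genes step toward 0 with each day, *Trim30a*, *Slfn5* and *Lgals3bp* stay at 1.73 or more at day 5, and *Oas1g*, with 1 WT count at day 2, has a fitted value that is not a bound.

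The shrinking of the excess was general but uneven. In size, whatever its sign, the difference was smaller at day 5 than at day 0 in 26 of the 27 genes with values in all comparisons, all but *Trim25*. It was smaller at day 2 than at day 0 in 24, all but *Trim25*, *Ifit2* and *Helz2*, and smaller at day 5 than at day 2 in 19. It was below 0, with Abcb10-null cells under WT cells, in 4 genes at day 2 and 10 at day 5. With signs kept, the median gene had 39.7% of its day 0 log2 difference left at day 2 and 10.2% at day 5. By role, the median at day 2 lay between 0.52 for Isg15 conjugation and 1.73 for *Rsad2* with *Cmpk2*, and at day 5 between -0.31 for Isg15 conjugation and 0.71 for the Oas family. In 22 of the 27 the signed difference went down more from day 0 to day 2 than from day 2 to day 5. After *Oasl1*, the largest shares left at day 5 were those of *Lgals3bp* (61.1%), *Slfn5* (54.3%), *Dtx3l* (42.8%), *Bst2* (41.0%) and *Trim30a* (40.7%). These values share the day 0 libraries that chose the genes and stand as a description.

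From day 0 to day 5 the changes of the genotypes were unequal. Between day 0 and day 5 the median log2 change of the 27 genes was -1.89 in Abcb10-null cells and 0.59 in WT cells. In 18 genes the level went down in Abcb10-null cells and up in WT cells, in 8 it went down in both, and in *Helz2* it went up in both. Each Abcb10-null day 5 library was below each day 0 library in 29 of 31 genes with enough counts for a fit, against 27.7% of all genes. Only *Helz2* was higher in all 5. Nothing is read from this count, because the genes were chosen as higher in Abcb10-null cells at day 0. *Trim30c* and *Rtp4*, among the 31, had enough counts only through the Abcb10-null libraries of day 0. Each WT day 5 library was above each day 0 library in 10 of 27 and below in 7 of 27, near the 27.7% and 28.7% of all genes.

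**Figure D4:**
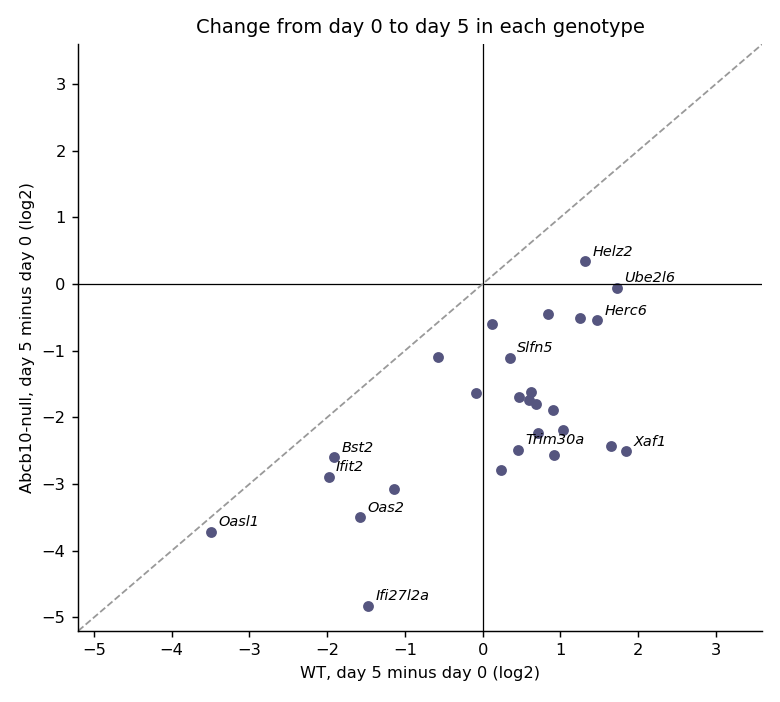
Change in level from day 0 to day 5 for 27 genes, in WT cells (horizontal axis) and Abcb10-null cells (vertical axis), as log2 fold change; each point is a gene and the dashed line marks equal change. All 27 points lie below the line, 18 of them in the part where WT cells go up and Abcb10-null cells go down.

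From day 2 to day 5, where day 0 played no part, WT and Abcb10-null cells could be tested. In WT cells, 10 of 28 genes rose and 4 fell, against 17% and 16.4% of all genes, with a median log2 change of 0.27 (all genes -0.0263). The genes that rose were *Isg15*, *Ube2l6*, *Herc6*, *Usp18*, *Ifit1*, *Oasl2*, *Rsad2*, *Parp9*, *Parp14* and *Xaf1*, while *Ifit2*, *Oasl1*, *Bst2* and *Lgals3bp* fell. Only 2 fell without WT day 2 replicate 4 or without WT day 5 replicate 4. The rise of *Usp18* was lost when any of 7 of the 10 libraries was left out, and the fall of *Lgals3bp* when any of 4 was. *Ifit1* and *Oasl2* had few counts at day 2 and passed the filter only with the WT day 5 libraries. *Isg15* itself rose from 0.627 to 2.06 CPM (log2 fold change 1.71, SE 0.41, adjusted p = 0.0068). In Abcb10-null cells, 2 of 29 genes rose and 9 fell, against 14.4% and 16.6% of all genes, with a median of -0.28 (all genes 0.0083). *Ube2l6* and *Helz2* rose, and *Ifit2*, *Oas1a*, *Oas2*, *Oasl1*, *Cmpk2*, *Bst2*, *Samd9l*, *Trim30a* and *Ifi27l2a* fell. The rise of *Helz2* was lost when any of 8 of the 10 libraries was left out, and the fall of *Oas2* when any of 4 was. *Ube2l6* rose and *Ifit2*, *Oasl1* and *Bst2* fell in both genotypes. The fall of *Bst2* in WT cells was lost when any of 6 of the 10 libraries was left out.

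The difference between these changes was tested as an interaction of genotype and day. It was negative and passed the test in 6 of 29 genes, against 2.94% of 13956 genes, and no gene had a positive one that passed, against 1.77% of all genes (2 positive and 15 negative at an unadjusted p under 0.05, and 0 and 6 with DESeq2). The median over the 29 genes was -0.64, and over all genes -0.0029. The 29 included *Oas1g*, which had 1 WT count on each of these days and did not pass. The 6 were *Herc6* (-1.05, SE 0.21, adjusted p = 0.00884), *Rsad2* (-1.64, SE 0.38, adjusted p = 0.0153), *Xaf1* (-1.55, SE 0.33, adjusted p = 0.0112), *Samd9l* (-0.80, SE 0.22, adjusted p = 0.0383), *Trim30a* (-1.19, SE 0.29, adjusted p = 0.0201) and *Ifi27l2a* (-2.44, SE 0.68, adjusted p = 0.0407). *Herc6*, *Rsad2* and *Xaf1* passed whichever of the 20 libraries was left out. The count was 3 without Abcb10-null day 2 replicate 3, WT day 5 replicate 1, WT day 5 replicate 4 or Abcb10-null day 5 replicate 5, and 0 without the 3 libraries of broad detection (7 negative and 1 positive at an unadjusted p under 0.05).

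The pathway that acts on these genes was read from 49 other genes, of which 32 could be tested at each of days 2 and 5. At day 0, where the effector genes were chosen, each Abcb10-null library exceeded each WT library in 17 of 32 of them. This was so for 13.7% of all genes, and the 17 stand as a description with no test. At day 2, 6 were higher and 5 lower, against 14.9% and 16.9% of all genes, and at day 5, 9 were higher and 7 lower, against 19.8% and 17.8%. The counts by class that follow are small and stand beside the same shares. None of the 10 interferon genes had enough counts for a test. Their 10 genes held 0 to 2 counts in each library at days 0 and 2 and 0 to 5 at day 5, except 20 in Abcb10-null day 5 replicate 4. *Ifnb1* had 2 counts in 1 WT library and 1 count in 1 Abcb10-null library at day 0 and none later. Of 5 receptor genes tested, 1 was higher at day 2 and 3 at day 5. *Ifnar1* did not pass the test on either day (log2 fold changes 0.11 and 0.14, adjusted p = 0.476 and 0.222). *Ifnar2* was higher at day 5 (log2 fold change 0.55, SE 0.18, adjusted p = 0.0323), with WT replicate 5 at 82.9 CPM above all Abcb10-null libraries.

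Of the 11 kinases and transcription factors tested, 1 was higher and 2 were lower on each of days 2 and 5. *Irf7*, which drives late interferon genes and is itself an interferon target, was at 2.77, 2.41, 2.55, 2.18 and 1.31 CPM in WT against 41.6, 62.3, 74.6, 59.6 and 71.7 CPM in Abcb10-null libraries at day 0, with 2.95, 6.25, 4.46, 6.46 and 5.197 CPM against 6.65, 7.72, 16.2, 10.6 and 8.54 CPM at day 2 (log2 fold change 0.92, SE 0.28, adjusted p = 0.0259), and 12.8, 8.57, 9.04, 12.9 and 9.59 CPM against 12.5, 11.7, 8.82, 9.22 and 7.08 CPM at day 5 (log2 fold change -0.11, SE 0.20, adjusted p = 0.69). It thus lay far apart at day 0 and overlapped at day 5. *Irf9* was at 13.9 and 48.6 CPM at day 0 and did not pass the test later (log2 fold changes 0.23 and 0.10, adjusted p = 0.399 and 0.645), nor did *Stat2* (log2 fold changes -0.44 and -0.18, adjusted p = 0.235 and 0.453).

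The sensors, 12 of which were tested, had 3 higher and 2 lower at day 2, against 14.9% and 16.9% of all genes. At day 5 they had 4 higher and 3 lower, against 19.8% and 17.8%. The 4 inhibitors had 1 higher and 1 lower at day 2 and 1 higher and 2 lower at day 5. From day 2 to day 5, 13 of the 32 pathway genes rose and 3 fell in WT cells (17% and 16.4% of all genes), and 8 of 33 rose and 2 fell in Abcb10-null cells (14.4% and 16.6%). The interaction passed the test in 3 pathway genes, all negative, against 2.94% of all genes, and in none that was positive (3 positive and 5 negative at an unadjusted p under 0.05, and 1 and 4 with DESeq2).

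Returning to the promoters, effector genes with the ISRE core had a median log2 difference of 3.19 at day 0 (9 genes tested). It was 1.79 in the 16 with a window and no core in the bases searched. At day 2 the medians were 1.76 (9 genes) and 0.72 (15 genes), and at day 5 they were 0.75 (8 genes) and 0.10 (15 genes). These are medians of the genes at hand, with no test. Those with the core at day 2 included *Oas1g* and *Ifit1*, from whose day 2 calls nothing is read. *Oas1a* and *Oas1g* share reads and promoter letters, so they are not independent of each other. *Trim30a* and *Slfn5*, each with 1 match, kept the differences given above at day 5, while *Oas3*, also with 1 match, was lower in Abcb10-null cells.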

How the data were processed

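The authors depleted rRNA and globin RNA, prepared stranded libraries, trimmed reads, aligned them to GRCm38 with STAR 2.6.1b and counted reads per gene with featureCounts 1.6.3. The deposited values are raw counts per gene, and the strand and multi-mapping settings are not given in the sources used here. Gene positions and lengths came from the GENCODE annotation of the same build and promoters from RefSeq.

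Groups were taken from the labels. Genes were filtered with filterByExpr and scaled by TMM, and each comparison was fitted on the libraries of its own groups with the quasi-likelihood F test of edgeR 4.0.16 (R 4.3.3). The p-values were adjusted by the Benjamini-Hochberg method across all genes that passed the filter in that comparison. SE was the absolute log2 fold change divided by the square root of F. CPM used TMM-scaled library sizes over all 30 libraries. DESeq2 1.42.0 was an alternative, and the fits were tested on simulated data. Interaction fits used 4 groups.

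All 35 genes are named. Values in every library are given for the genes with the largest and smallest day 0 difference in each role and for those that other statements turn on. The genes, lists and tests were chosen with earlier results of these data known. Fits without libraries of broad detection or that stood apart were chosen after seeing the data. A floor of 3 counts per library stood in for groups without a count. Values of some genes of the pathway list are not reported here.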

Additional observations from a re-analysis of the deposited data

Results flagged for a closer look

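Of 170 groups of 5 libraries examined over the 35 genes, in 8 1 library lay farther from its group than Dixon's test at the 95% level allows, and chance alone gives about 1 in 20 groups. *Usp18* in WT day 0 replicate 2 was at 4.74 CPM against 3.84 to 4.05 CPM in the others. *Parp9* in WT day 0 replicate 4 was at 9.50 CPM against 12.4 to 13.2 CPM. *Slfn5* in WT day 0 replicate 1 was at 9.91 CPM against 7.04 to 7.71 CPM, *Helz2* in WT day 0 replicate 5 at 15.4 CPM against 8.75 to 10.6 CPM, and *Trim30a* in WT day 0 replicate 4 at 6.96 CPM against 3.92 to 4.77 CPM. *Oas1a* in Abcb10-null day 0 replicate 2 was at 73.3 CPM against 63.4 to 65.9 CPM. *Rnf213* in WT day 5 replicate 2 was at 83.3 CPM against 29.2 to 43.5 CPM, and *Oasl2* in Abcb10-null day 5 replicate 4, the shallowest library and the one of broadest detection, at 3.99 CPM against 1.26 to 2.04 CPM.

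For 6 genes the change from day 2 to day 5 differed between genotypes by the interaction test, with the change in Abcb10-null cells below that in WT cells: *Herc6* by -1.05, *Rsad2* by -1.64, *Xaf1* by -1.55, *Samd9l* by -0.80, *Trim30a* by -1.19 and *Ifi27l2a* by -2.44 on the log2 scale. Only *Herc6*, *Rsad2* and *Xaf1* passed whichever single library was left out, and none of the 6 passed without the libraries of broad detection.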

How the results depend on the processing

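The number of libraries, 5 in a group, and the scarce counts of *Ifit3*, *Ifit3b*, *Zbp1*, *Ifi44*, *Trim30c* and *Rtp4* limit the tests.

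With at least 10 counts required in every library, the median log2 fold change of the genes tested was 2.65 at day 0, 0.80 at day 2, 0.093 for WT day 5 against day 2, -0.48 for the interaction of days 2 to 5 and -1.86 for Abcb10-null day 5 against day 0. With all 30 libraries in one fit, the day 5 median was 0.41 and 10 genes had a negative interaction. Without the 3 libraries of broad detection, 5 genes were higher and 0 lower at day 5 (10 and 3 at an unadjusted p under 0.05 in edgeR), 1 rose from day 2 to day 5 in Abcb10-null cells and 0 had a negative interaction. Without the 2 libraries that stood apart, Abcb10-null day 2 replicate 3 and WT day 5 replicate 5, 1 gene (*Lgals3bp*, 1.40, adjusted p = 0.0444) had a positive interaction. The cause of these shifts was not tested.

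Leaving out each library in turn gave ranges. At day 2, 19 to 21 genes were higher and 1 to 2 lower (2 without Abcb10-null day 2 replicate 2). At day 5, 4 to 9 were higher. From day 2 to day 5, 2 to 4 fell in WT cells, 1 to 2 rose in Abcb10-null cells with a median of -0.40 to -0.16, and the interaction had a median of -0.71 to -0.48, with 0 to 1 positive and 3 to 7 negative. The described changes from day 0 had medians of 0.44 to 0.72 for WT day 5, -1.803 to -1.57 for Abcb10-null day 2 and -2.35 to -2.07 for Abcb10-null day 5, and their differences between genotypes -1.76 to -1.55 at day 2 and -2.23 to -2.01 at day 5. Of the calls, 20 of 22 at day 2, 7 of 14 at day 5, 11 of 14 in WT cells, 9 of 11 in Abcb10-null cells and 3 of 6 interactions held whichever library was left out. The 20 included *Oas1g*, with 1 WT count, and *Oasl2*, also with few WT counts. Nothing is read from the calls of these genes.

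Log2 values near 0 changed sign without 1 library for *Ube2l6* at day 2 (-0.085 to 0.020), for *Ifit1* (-0.36 to 0.27), *Oasl2* (-0.30 to 0.18) and *Parp9* (-0.23 to 0.0035) at day 5, for *Dtx3l* in WT cells (-0.057 to 0.084), for *Herc6* (-0.11 to 0.072), *Oas3* (-0.14 to 0.24), *Oasl2* (-0.10 to 0.44), *Parp14* (-0.14 to 0.046) and *Trim25* (-0.30 to 0.058) in Abcb10-null cells, and for the interaction of *Oas1g* (-2.83 to 0.019), *Oas2* (-0.39 to 0.021), *Oasl1* (-0.13 to 0.29) and *Trim25* (-0.18 to 0.19). Without the 3 broad libraries they did for *Ifit1* (0.0064), *Ifit2* (0.16), *Oasl2* (-0.21) and *Parp9* (0.032) at day 5, for *Herc6* (0.16), *Oasl2* (-0.11) and *Parp14* (0.040) in Abcb10-null cells and for *Oasl1* in the interaction (0.050), and without the 2 libraries apart for *Oasl1* in the interaction (0.31). Other settings turned *Ube2l6* at day 2 (0.024 with 30 libraries), *Oasl2* at day 5 (-0.020) and *Oas3* in Abcb10-null cells (-0.028, both with every gene of at least 1 count), *Dtx3l* in WT cells (0.015 with DESeq2 size factors, 0.0074 with DESeq2) and the interaction of *Oasl1* (0.0016 with size factors, 0.0056 with DESeq2, 0.025 with either count filter).

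With replicate number as a replicate block, 20 genes were higher and 1 lower at day 2, 9 and 4 at day 5, 9 rose and 5 fell in WT cells, 2 and 9 in Abcb10-null cells, and 0 and 5 interactions passed. *Ifit1* at day 5 turned to 0.041 and the interaction of *Oasl1* to 0.056. Deviations from group means correlated within 75 same-numbered pairs at -0.45 to 0.52, with a median of -0.0041, and 20 were over 0.1. Whether particular groups were paired by replicate number cannot be told from these values.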

Other observations

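Markers of macrophages, dendritic cells, T cells, B cells and NK cells, 20 genes in all without *Bst2*, had 214 and 190 counts in Abcb10-null day 5 replicates 4 and 5, and 44 to 78 counts in the other 3 libraries of that group. The same 2 libraries held 43 and 19 counts of the 6 scarcest effector genes, against 1 to 10 counts in the other 3, and 20 and 4 counts of the 10 interferon genes, against 0.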
